A study of Homo sapiens with 2 samples.

Results

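Mid-size Hi-C domains that held no protein-coding gene were described in HepG2 cells. A domain counted as mid-size when its end minus its start lay between 200 and 3000 kb, and as gene-free when the midpoint of no protein-coding RefSeq gene record fell inside it. By this rule 208 of the 2524 domains of the PA+OA list and 221 of the 2679 domains of the mock list were members, 429 of 5203 in all. The other mid-size domains, 1838 in the PA+OA list and 1964 in the mock list, held at least 1 such midpoint and are called gene-holding below.

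HepG2 is a human liver cancer cell line that is widely used as a model of hepatocytes loaded with lipid. The PA+OA cells had received 120 µM palmitic acid, a saturated fatty acid, and 240 µM oleic acid, a monounsaturated one, for 48 h in DMEM with 1% fatty acid-free BSA. The mock cells had received DMSO diluted 1 to 1000 for the same 48 h, and the wording of the labels does not settle whether their medium held BSA. Each group was 1 Hi-C library of this 1 cell line, so no difference between PA+OA and mock could be tested, and the values below describe these libraries. The deposited lists held only the chromosome, start and end of each domain on build hg38, so the depth of the libraries is unknown and liver marker genes could not be checked.

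Hi-C measures how often pairs of genomic positions lie close together in the nucleus. Topologically associating domains are stretches of the chromosome whose positions contact each other more often than they contact positions outside, and the edges of many of them are bound by CTCF and cohesin or lie at active promoters. Long stretches without protein-coding genes, called gene deserts, often lie beside genes with roles in development, whose distant enhancers they can hold. Other such stretches are repeat-rich sequence around centromeres and on the short arms of acrocentric chromosomes, where short reads are hard to place.

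The next whole protein-coding record lay within 40 kb on 10.8% of the sides of gene-free domains in PA+OA and 11.8% in mock. For gene-holding domains these shares were 39.3% and 38.4%, a contrast that follows in part from the rule. Among genes with a promoter in the table, the 4 starts nearest to an edge of domains that both lists held as gene-free with both edges matched were picked with their distances known and are printed to show what stood at such edges. They are RefSeq promoters on GRCh38.p14, each 250 bases before to 50 bases after the gene's start, 5′ to 3′ on the gene's strand. Capitals mark AGGNGGC, part of the core motif of CTCF, and TATAAA, the letters of the TATA box, on either strand. The letters were sought anywhere in the promoter, and their distance from the gene's start was not considered.
PKN2: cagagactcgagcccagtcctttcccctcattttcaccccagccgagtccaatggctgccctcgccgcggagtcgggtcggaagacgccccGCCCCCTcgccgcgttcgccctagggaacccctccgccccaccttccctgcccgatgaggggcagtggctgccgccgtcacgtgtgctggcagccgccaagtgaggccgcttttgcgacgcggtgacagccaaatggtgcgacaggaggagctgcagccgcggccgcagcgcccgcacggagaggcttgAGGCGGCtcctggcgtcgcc
JARID2: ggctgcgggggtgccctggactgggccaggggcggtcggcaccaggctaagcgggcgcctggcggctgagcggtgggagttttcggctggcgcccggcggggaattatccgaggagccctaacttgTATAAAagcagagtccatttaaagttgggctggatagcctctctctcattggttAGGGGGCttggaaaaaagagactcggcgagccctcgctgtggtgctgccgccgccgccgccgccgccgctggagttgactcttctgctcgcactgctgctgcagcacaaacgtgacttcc
SRRM4: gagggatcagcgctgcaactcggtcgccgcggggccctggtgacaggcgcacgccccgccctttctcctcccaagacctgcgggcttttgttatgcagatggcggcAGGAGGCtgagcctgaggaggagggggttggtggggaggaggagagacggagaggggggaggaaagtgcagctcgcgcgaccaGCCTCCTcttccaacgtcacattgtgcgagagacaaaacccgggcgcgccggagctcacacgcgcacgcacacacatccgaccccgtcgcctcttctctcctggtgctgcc
LMCD1: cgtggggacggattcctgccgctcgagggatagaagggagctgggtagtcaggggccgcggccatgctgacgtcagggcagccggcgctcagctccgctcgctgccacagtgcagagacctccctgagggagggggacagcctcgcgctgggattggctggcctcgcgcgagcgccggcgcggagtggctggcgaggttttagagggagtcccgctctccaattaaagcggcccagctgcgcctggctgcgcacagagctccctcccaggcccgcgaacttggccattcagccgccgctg
PKN2 encodes a protein kinase, and its start, in the promoter at chr1:88684023-88684322 (plus strand), lay 4.27 kb beyond the right edge shared by a PA+OA domain of 560 kb and a mock domain of 520 kb. JARID2 encodes a subunit of the Polycomb repressive complex PRC2. Its start, in the promoter at chr6:15245819-15246118 (plus strand), lay 6.07 kb beyond a domain of 200 kb that both lists held with equal coordinates. SRRM4, a splicing regulator known from neurons, has its promoter at chr12:118981291-118981590 (plus strand), with the start 21.5 kb beyond an equal domain of 560 kb. LMCD1, a LIM domain protein that modulates transcription, has its promoter at chr3:8501573-8501872 (plus strand), with the start 21.8 kb beyond an equal domain of 640 kb.

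Over all members there were 37 pairs of a flanking gene and an edge that stood at the same position in both lists, with the gene's record within 40 kb of the edge, and in 30 of them the gene had a promoter in the table. AGGNGGC, searched on both strands, was present in 10 of the 30, against 41.2% of all 22156 protein-coding promoters. TATAAA was present in 2 of the 30, against 9.46% of all of them. The JARID2 promoter held both, the PKN2 and SRRM4 promoters held AGGNGGC only, and the LMCD1 promoter held neither.

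The gene-free domains were shorter than the gene-holding ones and covered little of the genome. In the PA+OA list they covered 130 Mb with a median of 480 kb, against 1631 Mb and a median of 640 kb for the gene-holding domains. In the mock list they covered 139 Mb with a median of 480 kb, against 1791 Mb and 680 kb. The middle range from the first to the third quartile was 320 to 720 kb in PA+OA and 320 to 680 kb in mock. All edges in both lists were multiples of 40 kb and neighbouring domains shared an edge, so 40 kb is the finest step that could be seen.

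At the limits of the size range, 20 gene-free domains of the PA+OA list and 11 of the mock list were exactly 200 kb long, and both edges were matched for 4 and 3 of them. Just below the limit, 26 PA+OA and 20 mock domains without a gene midpoint were 160 kb long, with 9 and 7 matched at both edges. The longest members measured 2720 kb in PA+OA and 2920 kb in mock, and the shortest gene-free domains above the range 3200 and 3320 kb.

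Members were spread unevenly over the chromosomes. Chromosome 8 held the most in both lists, 31 in PA+OA and 32 in mock, and chromosomes 13 and 19 held none. The lists differed most on chromosome 3, with 25 in PA+OA and 11 in mock, and chromosome 18 held 0 in PA+OA and 5 in mock. Chromosome 5 went the same way as chromosome 18, with 6 in PA+OA and 13 in mock. Gene-holding domains differed in the same direction on these 3 chromosomes. They numbered 170 in PA+OA and 136 in mock on chromosome 3, 25 and 63 on 18, and 100 and 114 on 5. Without replicates these differences have no error to be set against.

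**Figure D1:**
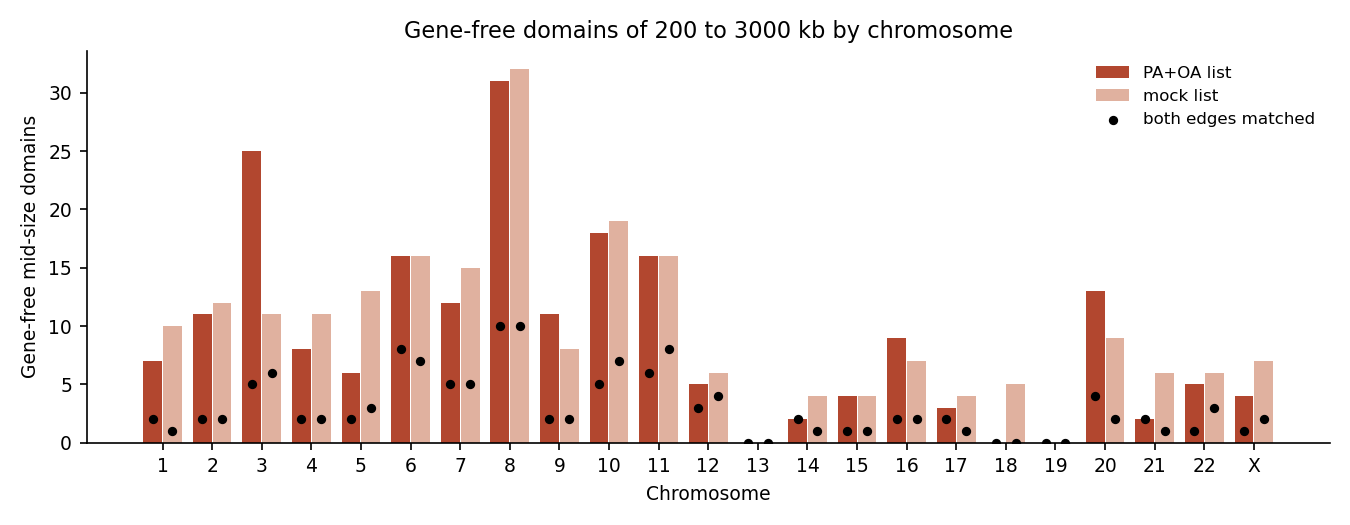
Number of gene-free domains of 200 to 3000 kb on each chromosome (bars, PA+OA list left of mock list) and how many of them had both edges matched in the other list (black points). Chromosome 8 stands highest in both lists, and chromosome 3 has 25 members in PA+OA and 11 in mock.

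Many members lay near the longest interval of their chromosome without a RefSeq record of any type, called its record-free stretch here, which measured 2.16 to 21.7 Mb. Within 5 Mb of it lay 92 gene-free domains of the PA+OA list (44.2%) and 104 of the mock list (47.1%). Of the gene-holding domains, 9.36% in PA+OA and 8.81% in mock lay there. The main results are given with and without these surroundings. The first 440 kb of chromosomes 14 and 22 were members with equal coordinates in both lists and held no record. Their left edge is the start of the chromosome, so that edge was bound to match. Their right edge stood at 440 kb on both chromosomes, inside record-free stretches of 16.0 and 10.7 Mb. Whether any contacts lie behind that edge cannot be told from domain positions alone. Both are counted among the equal and matched domains below.

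A smaller share of gene-free than of gene-holding domains was found again in the other list. An edge counted as matched when the other list had an edge within 40 kb. In the PA+OA list both edges were matched for 67 of 208 gene-free domains (32.2%, exact Clopper-Pearson 95% interval 25.9 to 39.0%) and for 1168 of 1838 gene-holding domains (63.5%, 61.3 to 65.8%), while the share over all mid-size domains was 60.4%. In the mock list both edges were matched for 70 of 221 gene-free domains (31.7%, 25.6 to 38.2%) and for 1140 of 1964 gene-holding domains (58.0%, 55.8 to 60.2%), with 55.4% over all. The difference, gene-free minus gene-holding, was -31.3 percentage points in PA+OA and -26.4 points in mock. The intervals cover counting error only: domains share edges with their neighbours and come from 1 library each, so no p-value was computed.

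The gene-free share was the lower one in each of 4 size classes. Between 400 and 800 kb, where gene-free domains were most numerous, both edges were matched for 44.8% of 87 gene-free and 66.9% of 703 gene-holding domains in PA+OA, and for 35.6% of 104 and 63.8% of 733 in mock. Between 200 and 400 kb both edges were matched for 19 of 73 gene-free domains against 64.1% of gene-holding ones in PA+OA, and for 28.6% against 64.2% in mock. Above 1600 kb only 15 gene-free domains remained in each list, and 2 of them (13.3%) were matched at both edges in each, against 58.9% of gene-holding domains in PA+OA and 47.5% in mock. The intervals of the 2 classes overlapped in the mock list between 800 and 1600 kb, where 36.0% of 25 gene-free and 52.1% of 539 gene-holding domains were matched.

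**Figure D2:**
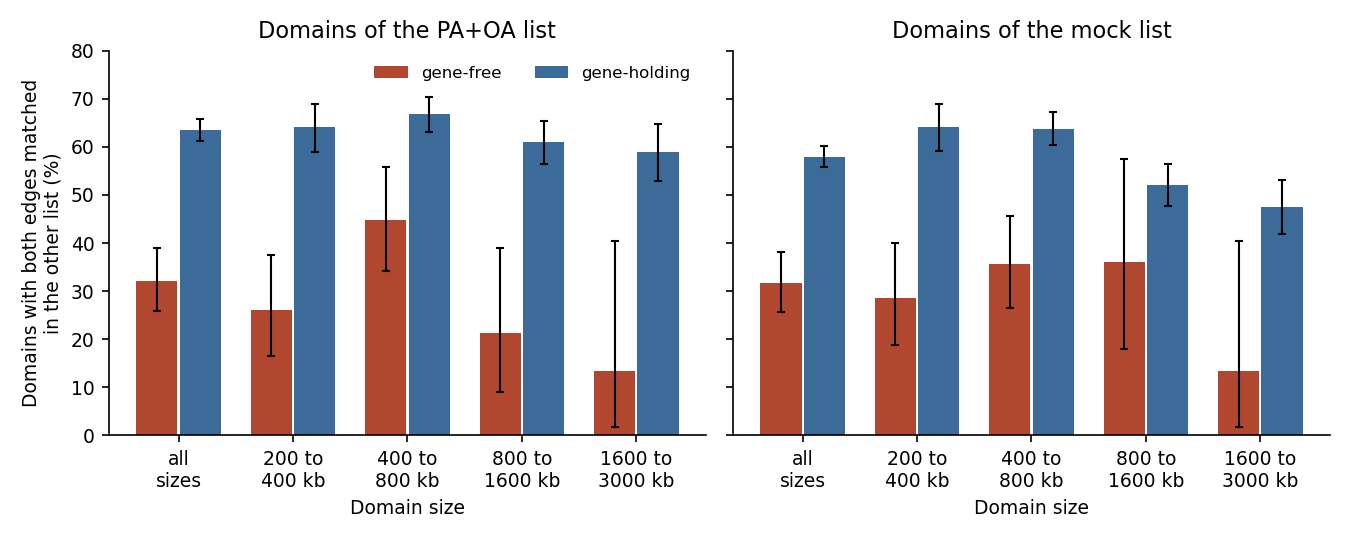
Share of domains with both edges matched within 40 kb in the other list, in percent, for gene-free (red) and gene-holding (blue) domains by size; bars are shares and error bars are exact 95% intervals for counting error. The gene-free bar is the lower one in all 4 size classes of both lists, from 13.3% to 44.8%.

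By the number of genes held, the share was lowest for domains with 0 genes. Domains that held exactly 1 gene midpoint were matched at both edges in 58.7% of 276 cases in PA+OA (52.6 to 64.6%) and in 54.0% of 291 cases in mock (48.0 to 59.8%). Domains with 2 genes stood at 68.7% and 62.7%, and those with 10 or more at 63.0% and 55.3%. Gene-free domains into which the end of a protein-coding record reached, without its midpoint, were matched at both edges in 43.8% of 48 cases in PA+OA and 45.8% of 48 in mock. Their intervals, 29.5 to 58.8% and 31.4 to 60.8%, overlapped those of domains with 1 gene. Gene-free domains that no protein-coding record touched were matched in 28.8% of 160 and 27.7% of 173.

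**Figure D3:**
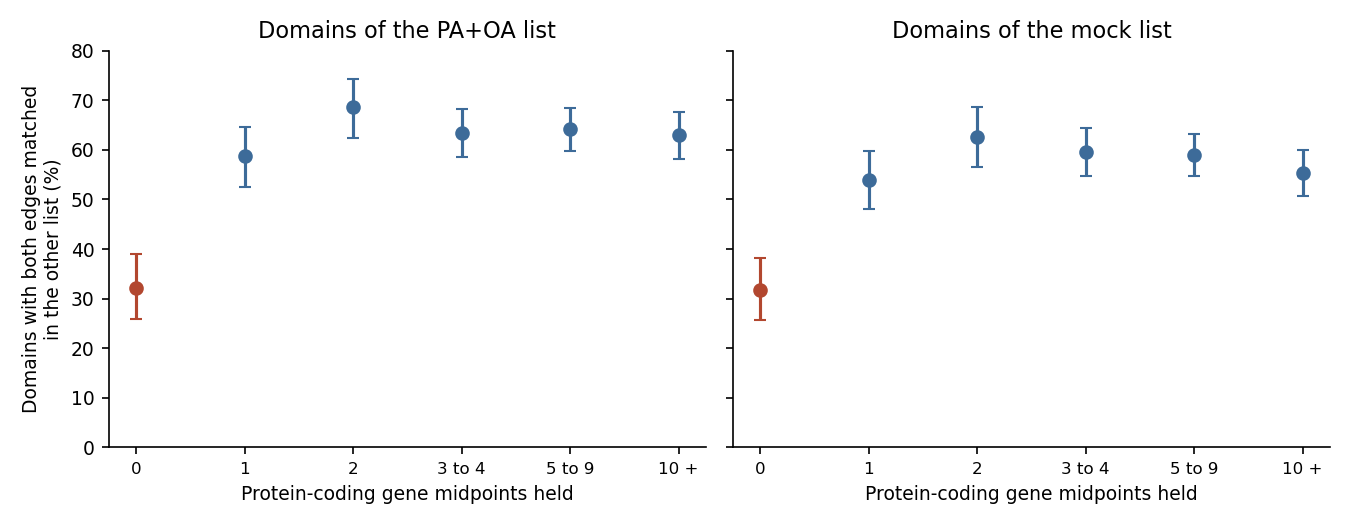
Share of mid-size domains with both edges matched in the other list, in percent, by the number of protein-coding gene midpoints they held; points are shares and bars exact 95% intervals for counting error, with gene-free domains in red. The points at 0 genes lie at 32.2% (PA+OA) and 31.7% (mock), and all other points lie between 54.0% and 68.7%.

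Away from the record-free stretches the shares differed in the same direction. With domains within 5 Mb of these stretches left out, both edges were matched for 36.2% of 116 gene-free domains (27.5 to 45.6%) and 64.3% of 1666 gene-holding domains in PA+OA. In mock the shares were 35.9% of 117 (27.2 to 45.3%) and 59.0% of 1791. Of the members that overlapped a stretch itself, 19.3% of 57 in PA+OA and 23.7% of 59 in mock were matched at both edges. With domains near the stretches kept, chromosomes with at least 5 domains of each class were compared. Gene-free domains had the lower share on 14 of 14 in PA+OA and on 16 of 18 in mock. The exceptions in mock were chromosomes 12 and 22. On chromosomes with fewer but some of each class, the gene-free share was higher on 14, 17, 21 and 22 in PA+OA and on 15 in mock. It was lower on 15 and X in PA+OA and on 14 and 17 in mock.

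Edge by edge, 55.3% of the edges of gene-free domains in PA+OA and 53.8% in mock were matched, against 78.5% and 74.3% for gene-holding domains and 76.2% and 72.2% over all mid-size domains. Counting each edge once, 42.6% of the 352 edges of gene-free domains in PA+OA had an edge of the mock list at the same position, and 40.9% of the 374 edges in mock had one of the PA+OA list. For gene-holding domains these shares were 68.4% and 64.5%. In every count of edges by class, an edge between a gene-free and a gene-holding domain enters both classes. There were 211 such edges in PA+OA and 223 in mock, so the classes are not separate sets of edges. Edges without a match were not all near misses: 88 of the 352 gene-free edges in PA+OA and 106 of the 374 in mock (28.3%) lay more than 200 kb from any edge of the other list, against 14.4% and 19.9% of the gene-holding ones. The curves drew together at larger distances, and within 1000 kb of an edge of the other list lay 95.2% of gene-free and 96.8% of gene-holding edges in PA+OA, and 93.9% and 92.6% in mock.

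**Figure D4:**
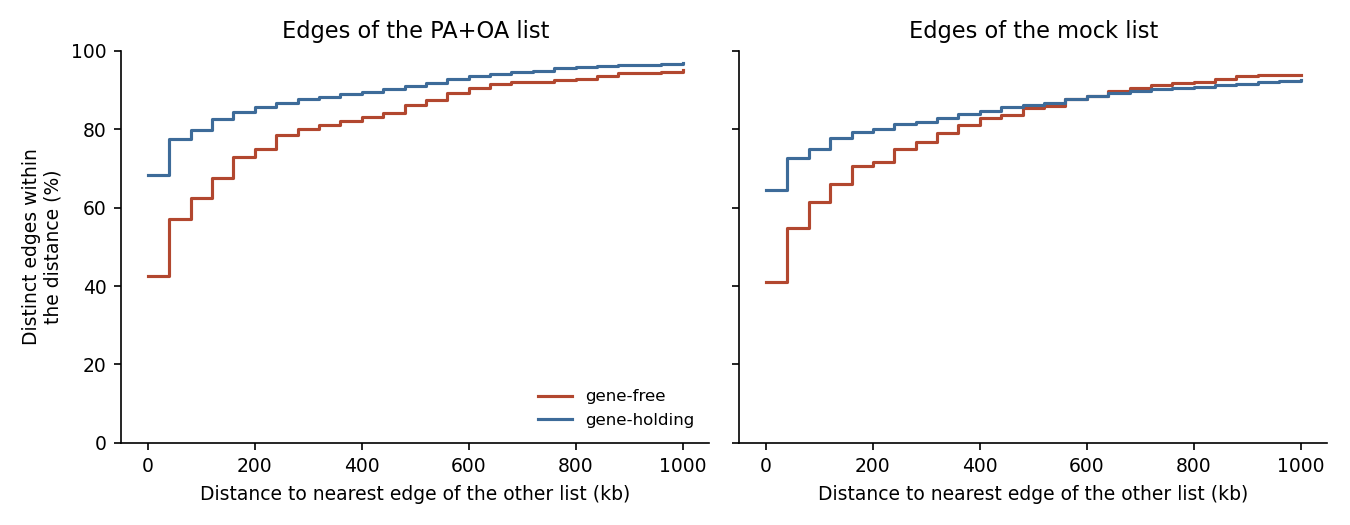
Cumulative share of distinct domain edges, in percent, by distance to the nearest edge of the other list in kb, for gene-free (red) and gene-holding (blue) mid-size domains. The curves start at 42.6% and 68.4% in PA+OA and at 40.9% and 64.5% in mock, and they meet near 600 kb in mock.

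Which class had more edges of the other list nearby depended on the surroundings. Within 1 Mb of an edge of a gene-free domain the other list had on average 3.14 edges in PA+OA and 3.08 in mock, against 2.87 and 2.70 around edges of gene-holding domains. Away from the record-free stretches the order turned round, with 2.38 and 2.27 edges around gene-free against 2.81 and 2.65 around gene-holding domains. The part of this density in the matching was not tested.

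In both classes the matched share was lowest for edges far from any protein-coding gene record. Edges of gene-free domains lay more than 200 kb from such a record in 57.4% of cases in PA+OA and 58.8% in mock, against 7.88% and 9.01% of edges of gene-holding domains. At that distance 49.5% of 202 gene-free edges in PA+OA and 49.5% of 220 in mock were matched, against 58.3% of 175 and 46.7% of 212 gene-holding edges. Within 40 kb of a record, but outside it, 74.3% of 35 gene-free edges in PA+OA and 69.0% of 42 in mock were matched, against 80.7% of 649 and 78.0% of 674. The intervals of the classes overlapped at each of the 4 distances in both lists. The classes share the edges that lie between them, so neither this overlap nor the weighted shares below compare separate edges. When the gene-holding edges were weighted to the distances of the gene-free ones, their matched share became 66.5% in PA+OA and 57.9% in mock, against 57.1% and 54.8% of the distinct gene-free edges. Unweighted, it was 77.6% and 72.7%. With the surroundings of the record-free stretches left out, 59.6% of gene-free edges in PA+OA and 56.5% in mock were matched, against a weighted gene-holding share of 70.7% and 63.0%.

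**Figure D5:**
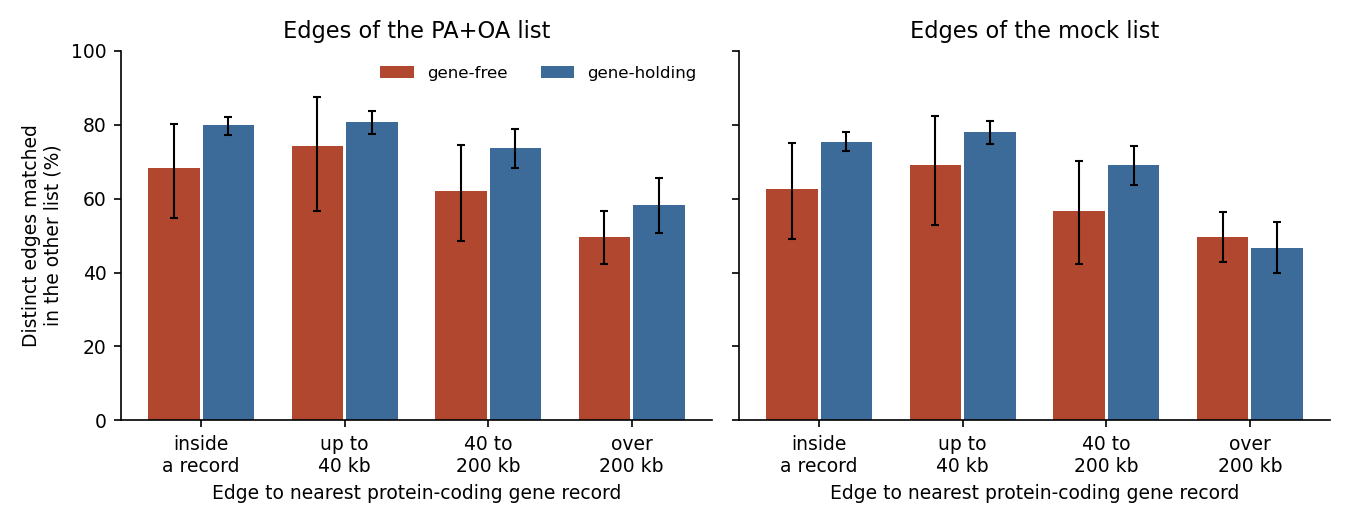
Share of distinct edges matched within 40 kb in the other list, in percent, by the distance from the edge to the nearest protein-coding gene record, for gene-free (red) and gene-holding (blue) domains; bars are shares and error bars exact 95% intervals for counting error. Both classes are lowest beyond 200 kb, at 49.5% and 58.3% in PA+OA and at 49.5% and 46.7% in mock.

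The share also went with the kind of neighbour. Of the edges between a pair of gene-free domains, 45.3% of 64 in PA+OA and 48.5% of 68 in mock were matched. Edges between a gene-free and a gene-holding domain were matched in 64.5% of 211 cases in PA+OA and 57.0% of 223 in mock, and edges between a pair of gene-holding domains were matched in 1165 of 1456 in PA+OA and 76.5% of 1576 in mock. With the surroundings of the record-free stretches left out, only 19 edges in PA+OA and 18 in mock lay between a pair of gene-free domains, and 52.6% and 33.3% of them were matched.

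Domain by domain, 33 gene-free domains had equal coordinates in both lists. They made up 15.9% of the gene-free domains of PA+OA and 14.9% of those of mock. The gene-holding domains included 824 such domains (44.8% and 42.0%), and over all mid-size domains the share was 41.9% in PA+OA and 39.2% in mock. A further 26 gene-free domains of PA+OA and 27 of mock had both edges matched and no edge of the other list inside, and 8 and 10 had both matched with edges inside. A single edge was matched for 96 (46.2%) in PA+OA and 98 (44.3%) in mock. No edge was matched for 45 (21.6%) in PA+OA and 53 (24.0%) in mock, against 6.47% and 9.52% of gene-holding domains and 8.02% and 11.0% over all.

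Most of the ground the members covered lay in mid-size gene-free domains of both lists. Both lists were set against the same gene positions, so this overlap follows in part from the rule and is given as a description. Of the 130 Mb in gene-free domains of PA+OA, 61.3% also lay in mid-size gene-free domains of mock, and this common ground was 57.6% of the 139 Mb of mock. Another 23.7% of the PA+OA ground lay in gene-holding domains of the mock list, and 13.7% in mock domains longer than 3 Mb. In the other direction, 19.1% of the mock ground lay in gene-holding and 21.3% in longer domains of PA+OA.

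The longest domain that both lists held with equal coordinates was chr6:163800001-165240000 (1440 kb). No protein-coding record reached into it, and it held 6 long non-coding RNA (lncRNA) records and 1 pseudogene, with C6orf118 39.7 kb beyond its right edge. The next was chr10:76160001-77120000 (960 kb). The records of LRMDA, a melanocyte differentiation gene, and of KCNMA1, the BK potassium channel, reached into it from either side. It was followed by chr10:84560001-85480000 (920 kb), which lay between CCSER2, 41.5 kb away, and GRID1, a delta-type glutamate receptor, 120 kb away, and held 10 lncRNA records. Next came chr10:36120001-36880000 (760 kb), with ANKRD30A 246 kb to its right, and chr16:17600001-18320000 (720 kb), between XYLT1, a xylosyltransferase that starts proteoglycan chains, and NPIPA9 of a family of near-identical copies. The sixth was chr4:159920001-160600000 (680 kb), 560 kb from RAPGEF2, an exchange factor for Rap GTPases, and 784 kb from FSTL5. Of the 33 equal domains, 10 lay within 5 Mb of a record-free stretch, 14 had a protein-coding record reaching in, and their median was 520 kb.

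The longest gene-free domain of the PA+OA list, chr10:38960001-41680000 (2720 kb), held no record at all and lay in the record-free stretch between the zinc finger genes ZNF37A and ZNF33B. Its left edge was matched and its right edge missed by 160 kb. Next to it in length was chr4:129160001-131760000 (2600 kb), with 12 lncRNA records, between C4orf33 and PCDH10, a protocadherin that acts in cell adhesion. In mock it lay inside a domain of 3640 kb, and neither edge was matched. The domain chr11:40840001-43320000 (2480 kb) was entered by LRRC4C, a netrin-G ligand of synapses, and by API5, an apoptosis inhibitor, and its right edge before TTC17 stood at the same position in mock. Likewise chr2:33920001-36400000 (2480 kb), between FAM98A and FEZ2 and entered by CRIM1, a membrane protein that binds bone morphogenetic proteins, had its right edge at the same position in mock, where it was the right end of a domain of 5680 kb with 17 genes.

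The fifth of the 6 longest had a close counterpart in the other list. It measured 2480 kb in PA+OA (chr7:108600001-111080000) and 2360 kb in mock (chr7:108600001-110960000), a reciprocal overlap of 95.2%. Its left edge stood at the same position, 25.1 kb from DNAJB9, an endoplasmic reticulum chaperone. Its right edge lay 11.1 kb from LRRN3 in PA+OA and 131 kb from it in mock. By the 40 kb rule both edges of the PA+OA domain were matched, the right one by another mock edge than that of its counterpart, and 1 mock edge lay inside it. Only the left edge of the mock domain was matched. The record of IMMP2L, a mitochondrial inner membrane peptidase, reached in. The domain held 8 lncRNA records and 7 pseudogenes in both lists.

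In the mock list the longest gene-free domain, chr22:12240001-15160000 (2920 kb), had no protein-coding record to its left and OR11H1, an olfactory receptor, 368 kb to its right. A PA+OA domain of 3200 kb, just above the size limit, had a reciprocal overlap of 90.0% with it, and the right edges differed by 320 kb. The domain chr15:17520001-20080000 (2560 kb) overlapped the record-free start of chromosome 15. On chromosome 5, chr5:164480001-166960000 (2480 kb) lay between MAT2B, a regulatory subunit of methionine adenosyltransferase, and TENM2, a teneurin of neuronal adhesion. In PA+OA it was part of a domain of 6720 kb that held 14 genes, TENM2 among them. Similarly chr5:84240001-86560000 (2320 kb), between HAPLN1, a link protein of the extracellular matrix, and COX7C, a subunit of cytochrome c oxidase, and entered by EDIL3, an integrin ligand, lay in a PA+OA domain of 4880 kb with 6 genes, MEF2C among them. None of the edges of these last 2 domains was matched.

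Among the other long members without any matched edge, some lay inside longer domains of the other list. In the PA+OA list chr3:116760001-118840000 (2080 kb), between LSAMP, a limbic adhesion protein, and IGSF11, lay inside a mock domain of 7400 kb that held 43 genes. Also in PA+OA, chr4:148320001-149320000 (1000 kb), entered by NR3C2, the mineralocorticoid receptor, lay in a mock domain of 2280 kb with ARHGAP10, NR3C2 and IQCM. Of the remaining PA+OA domains with no matched edge, chr15:17800001-19600000, chr6:59720001-61280000 beside KHDRBS2 and chr8:45680001-46720000 overlapped record-free stretches. In the mock list chr4:134480001-136440000 (1960 kb), between PABPC4L and PCDH18, lay in a PA+OA domain of 6320 kb with PCDH10, PABPC4L and PCDH18. Also in mock, chr7:68160001-70160000 (2000 kb) was entered by AUTS2, a gene of neuronal development, and ended 120 kb beyond the PA+OA domain that it overlapped most. The remaining mock domains with no matched edge were chr10:39200001-41360000 and chr4:49480001-51640000, which overlapped record-free stretches.

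Most gene-free domains stood alone or in pairs. Runs of 3 or more consecutive members numbered 10 in PA+OA and 15 in mock. The longest run of PA+OA was 10 domains over 4160 kb (chr20:25760001-29920000), 8 of them overlapping the record-free stretch of chromosome 20 beyond ZNF337. The longest of mock was 7 domains over 2320 kb (chr11:51720001-54040000), all overlapping the record-free stretch between the olfactory receptors OR4C12 and OR4C46. Only 3 of the runs lay more than 5 Mb from such a stretch. In PA+OA, 3 domains covered chr10:107040001-109880000 around SORCS1, a sorting receptor whose record reached into the first of them, up to ADD3, a cytoskeletal adducin. The mock list had a single domain of 3200 kb there, with the same right edge. In mock, 3 domains covered chr18:28240001-30960000 between CDH2, which encodes N-cadherin, and DSC3, a desmosomal cadherin. In PA+OA the left part of that stretch lay in a domain of 8800 kb. The third run, in mock, was chr8:135840001-138120000 between KHDRBS3 and FAM135B, and its last domain of 600 kb had equal coordinates in both lists.

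Of 18 loci of liver, fat metabolism and growth, 2 lay within 500 kb of a member in PA+OA and 3 in mock. The share of all protein-coding genes that lie this near was not computed. The counts therefore do not show whether these loci differ from other genes. Both lists had a gene-free domain 116 kb from APOA1, which encodes the main protein of high-density lipoprotein: chr11:116280001-116720000 (440 kb) in PA+OA and chr11:116240001-116720000 (480 kb) in mock. Both ended at the same position, 28.2 kb before BUD13, a splicing factor, and their left edges differed by 1 step of 40 kb. Both held 4 lncRNA records. Their left neighbour CADM1, a cell adhesion molecule, lay 776 kb away in PA+OA and 736 kb in mock.

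ALB and AFP, the genes of albumin and of its fetal counterpart, lay 364 and 396 kb from a mock domain, chr4:72520001-73040000 (520 kb), which ended 12.4 kb before COX18, a factor of cytochrome c oxidase assembly. The PA+OA domain there, chr4:72360001-73040000, had the same right edge and began 160 kb further left. It held the midpoint of ADAMTS3, a procollagen peptidase, and was therefore gene-holding, so the class differed by the place of 1 edge. MYC, the proto-oncogene, lay 17.1 kb outside the PA+OA domain chr8:127760001-128880000 (1120 kb), which held 5 lncRNA records, PVT1 among them, and the miRNA genes MIR1204, MIR1205, MIR1206, MIR1207 and MIR1208. The mock list had an edge at the same position beside MYC, but its domain ran on for 2000 kb and held the midpoint of GSDMC, a gasdermin, so it was gene-holding. For the other 14 loci, FASN, SCD, CD36, PPARG and PPARA among them, no gene-free domain of either list lay within 500 kb.

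The nearest genes lying wholly outside gene-free domains were often far away. Records that cross an edge are left out of these gaps, and 16.2% of the distinct gene-free edges in PA+OA and 15.8% in mock lay inside a protein-coding record. The gap from an edge to the next whole protein-coding record had a median of 569 kb in PA+OA and 596 kb in mock, against 68.4 and 67.9 kb for gene-holding domains, and 54.1% and 54.0% of the gaps exceeded 500 kb. The gene-free domains had 240 distinct flanking genes in PA+OA and 265 in mock, and 159 of them were shared (66.2% and 60.0%). Since the rule asks for the absence of genes, these distances follow in part from it and are given as a description.

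Genes of neuronal adhesion and synapses were more frequent among these flanks than among all genes. They made up 11 of 240 flanking genes in PA+OA (4.58%) and 12 of 265 in mock (4.53%), against 1.30% and 1.27% of the flanks of gene-holding domains and 0.706% of all 19821 protein-coding genes. Examples picked with the flanks known are CSMD1, CSMD3, ROBO2, LSAMP and LRRC4C, and the near-identical copies CNTNAP3, CNTNAP3B and CNTNAP3C also counted. Developmental transcription factors made up 2.50% and 2.26%, against 1.75% and 2.09% beside gene-holding domains and 0.999% of all genes. GATA3, SOX2 and ID4 were among them in one or both lists. Cadherins and protocadherins numbered 1 in PA+OA and 4 in mock (0.417% and 1.51%, against 0.444% of all genes). Ion channels and solute carriers made up 2.50% and 3.40%, against 3.05% and 3.11% beside gene-holding domains and 2.77% of all genes. Zinc finger genes made up 3.75% and 2.64%, against 1.60% and 1.41% beside gene-holding domains and 2.71% of all genes. Olfactory receptors made up 1.67% and 1.89%, against 1.03% and 0.820% beside gene-holding domains and 1.96% of all genes. Of 70 liver and lipid genes, which are 0.353% of all genes, 0 flanked a gene-free domain in PA+OA and 1 did in mock (0.377%), against 0.453% and 0.396% of the flanks of gene-holding domains. The 1 gene was PPARGC1A, a coactivator of mitochondrial and gluconeogenic genes, 592 kb from chr4:22720001-23200000 (480 kb), whose edges were both unmatched.

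The members were not empty. At least 1 record other than a protein-coding gene had its midpoint in 73.6% of the gene-free domains of PA+OA and 74.2% of those of mock, and away from the record-free stretches in 95.7% of both. lncRNA records were present in 62.5% and 63.8%, at 4.20 and 3.70 per Mb, against 6.70 and 6.86 per Mb in gene-holding domains. Pseudogenes stood at 4.15 and 4.09 per Mb, against 6.09 and 6.06. Away from the record-free stretches lncRNA records stood at 5.35 and 4.79 per Mb, against 6.78 and 6.91. Pseudogenes there stood at 3.24 and 2.93 per Mb, against 5.69 and 5.68. Gene-free domains that held some record were matched at both edges in 36.6% of 153 cases in PA+OA and 32.9% of 164 in mock, and those that held none in 11 of 55 and 28.1% of 57.

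A few members were dense in records that do not count as protein-coding. The densest was the mock domain chr14:21920001-22560000 (640 kb), which held 116 records, most of them of the T-cell receptor alpha and delta locus, with 62 J segments and the constant regions TRAC and TRDC. The domain chr2:88960001-89280000 (320 kb) had equal coordinates in both lists and held 30 records, of which 17 were V segments of the immunoglobulin kappa light chain. On chromosome 21 the mock domain chr21:8120001-8480000 (360 kb) held 12 ribosomal RNA records, RNA45SN2 among them, and 6 miRNA records. A stretch of chromosome 16 with 57 and 58 pseudogenes was gene-free in both lists, as chr16:34960001-35920000 in PA+OA and chr16:34880001-36400000 in mock. These domains were chosen for their number of records, after it was seen.

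MicroRNA genes were scarce: 15 gene-free domains of PA+OA (7.21%) and 10 of mock (4.52%) held at least 1, against 34.3% and 36.2% of gene-holding domains. Per Mb there were 0.161 and 0.137 miRNA records in gene-free domains, against 0.738 and 0.743. Away from the record-free stretches there were 0.212 in PA+OA and 0.108 in mock, against 0.759 in both lists. How many miRNA records lie inside protein-coding records, which the rule tends to leave out, was not counted. The 34 miRNA genes were 21 in PA+OA and 19 in mock, and 6 lay in a gene-free domain of both lists. The mature sequences found for these 6, from RefSeq, are shown because these miRNA genes lay in gene-free ground in both libraries. For MIR135A2 only a 3p sequence was found, so the seeds compared are only those printed. The sequences run 5′ to 3′ with the seed, bases 2 to 8, in capitals.
hsa-miR-1251-5p: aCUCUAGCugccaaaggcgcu
hsa-miR-1251-3p: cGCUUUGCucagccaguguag
hsa-miR-135a-2-3p: aUGUAGGGauggaagccaugaa
hsa-miR-3668: aAUGUAGAgauugaucaaaau
hsa-miR-4465: cUCAAGUAgucugaccagggga
hsa-miR-4477b: aUUAAGGAcauuugugauugau
hsa-miR-5701: uUAUUGUCacguucugauu
No seed recurred among these. Over the 27 mature miRNAs with a sequence there were 26 seeds, and GGCGGGG alone was shared, by hsa-miR-663a in a PA+OA domain and hsa-miR-10396b-5p in a mock domain.
hsa-miR-663a: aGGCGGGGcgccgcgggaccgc
hsa-miR-10396b-5p: cGGCGGGGcucggagccggg
MIR1251 and MIR135A2 lay together on chromosome 12, in chr12:97040001-97920000 (880 kb) of PA+OA and chr12:97040001-98040000 (1000 kb) of mock, which shared their left edge. MIR3668 and MIR4465 lay together on chromosome 6, in chr6:139880001-141600000 (1720 kb) of PA+OA and chr6:139880001-140920000 (1040 kb) of mock, which also shared their left edge.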

How the data were processed

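Domain lists of 1 PA+OA and 1 mock Hi-C library were used as deposited. The tools named, per the submitters' processing notes, are HiC-Pro and FastQC, and the build is hg38. Versions, the domain caller, its settings and the depth were not given in the sources used here. The deposited files hold only domain positions in bases, with no score or contact value. Of the 2524 PA+OA and 2679 mock rows, 108 and 136 had length 0, and no gap separated consecutive domains. Starts are printed 1-based.

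Genes came from RefSeq (GRCh38.p14). Of 59098 records, 679 on scaffolds listed under a chromosome name were left out (153 protein-coding, none with a promoter in the table), leaving 19821 protein-coding and 38598 other records. Named were, per list, the 6 longest members, the 6 longest with equal coordinates and with no matched edge, runs of 3 or more, and members within 500 kb of 18 loci, with their flanking genes. 1 of the 6 longest members of each list is not reported here. Other names, and the 5 Mb limit around record-free stretches, were chosen after seeing the data. The members and lists were chosen with earlier results of these data known.

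Computations used Python 3.11.15, numpy 2.4.6, pandas 2.3.3, scipy 1.17.1 and matplotlib 3.10.9, and the matching was tested on simulated lists. With 1 library per group there was no test, and exact Clopper-Pearson 95% intervals cover counting error only. Alternatives changed the tolerance, the size range, the gene rule and the chromosomes used.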

Additional observations from a re-analysis of the deposited data

How the results depend on the processing

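Gene-free domains had the lower share of domains with both edges matched under all 17 alternatives tried for each list and after leaving out each of the 23 chromosomes in turn, which gave differences of -33.1 (without chromosome 6) to -29.4 points (without 10) in PA+OA and -27.7 (without 22) to -24.7 points (without 1) in mock. With a tolerance of 0 kb the shares were 18.8% (gene-free) and 51.1% (gene-holding) in PA+OA and 15.8% and 47.1% in mock. With 80 kb they were 40.4% and 66.2% in PA+OA and 38.9% and 60.9% in mock. With 120 kb they were 48.1% and 70.5% in PA+OA (difference -22.4 points) and 46.6% and 64.2% in mock (difference -17.5 points). Asking for no midpoint of any record left 55 domains in PA+OA and 57 in mock, with 20.0% matched and a difference of -41.5 points in PA+OA and 28.1% and -28.0 points in mock. A size range of 400 to 3000 kb left 135 members in PA+OA and 144 in mock, and leaving out domains within 5 Mb of record-free stretches, added after seeing the data, left 116 and 117. The gene-holding share of mock became 60.3% with sizes of 200 to 1500 kb, 60.9% without chromosomes of mean domain length over 2 Mb, and 61.5% when weighted to gene-free sizes. Keeping scaffold records, also added, gave 204 members in PA+OA and 218 in mock, with differences of -31.7 and -27.4 points. The cause of these shifts was not tested beyond what each setting removes. No paired analysis was possible because each group had 1 library. The lists carry no depth, so how far depth limits edge positions is unknown.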
